A study of Homo sapiens with 8 samples.

Results

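KASUMI-1 and THP-1 are human acute myeloid leukaemia cell lines, and the values here compare their transcriptomes while both were exposed to an inhibitor of the histone demethylase LSD1 (LSD1i). The comparison was made up of the 4 LSD1i libraries among the 8 of the series. They were taken by their labels, as KASUMI-1 with LSD1i at 6 h and 72 h against THP-1 with LSD1i at 24 h and 72 h. The lines compared were chosen with earlier results of these data known. The inhibitor was DDP38003 at 0.5 µM. The state set against it was the same lines kept in vehicle, KASUMI-1 for 6 h and 72 h and THP-1 for 24 h and 72 h. The submitters call KASUMI-1 sensitive and THP-1 resistant to LSD1i, and they chose these times as the earliest with detected and the last with tested mTOR regulation. RNA was taken from whole cultures and sequenced with a TruSeq kit.

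Each line stands for 1 patient's leukaemia and each group held 1 library per time, so both times of a line served as its 2 replicates. The labels name no separate cultures for the libraries. The p-values below therefore measure only the spread between these libraries, which may be technical and which includes the difference between a line's 2 times. The first times of the lines differ (6 h and 24 h). Gaps from the 72 h libraries alone are given only for the count of 2-fold gaps, for the signs of the calls and for SLC7A11. All other gaps join both times of a line, so line and length of exposure cannot be told apart in their first-time part. The question was which differences between the lines were still there in the treated state, which appeared in it and which were gone.

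LSD1, encoded by KDM1A, removes methyl groups from a lysine of histone H3 that marks active genes. It works within CoREST complexes, which the DNA-binding repressors GFI1 and GFI1B bring to genes of blood cell maturation. Inhibitors of LSD1 are known to raise monocyte and granulocyte genes in leukaemia cells. KASUMI-1 carries the RUNX1::RUNX1T1 fusion, a repressor that holds cells at a progenitor stage. THP-1 carries a fusion of KMT2A with MLLT3, which drives HOXA genes, and resembles monocytic cells.

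The 4 LSD1i libraries held 35131884 to 45970766 counted reads and the 4 vehicle libraries 23722972 to 43392502. Log2 CPM (counts scaled to library size with TMM factors) correlated between libraries of 1 line with r = 0.981 to 0.992 and between lines with r = 0.803 to 0.822, over 16060 genes. A gene tied to each fusion was high in the line known to carry it. RUNX1T1, which in KASUMI-1 is read from the fusion gene, had 85.5 and 106 CPM in KASUMI-1 with LSD1i, against 0.201 and 0.169 CPM in THP-1 with LSD1i. HOXA9, a homeobox target of KMT2A fusions, had 1.17 and 1.51 CPM in KASUMI-1 with LSD1i, against 56.3 and 53.2 CPM in THP-1 with LSD1i. MEIS1, its usual partner, had at most 0.112 CPM in any LSD1i library and was too low to be tested. In all pairs of values below the first time is given before 72 h.

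Most differences between the lines that were called with LSD1i were also there with vehicle. Of 16060 genes tested, edgeR's quasi-likelihood test called 9292 different between the treated lines at a Benjamini-Hochberg adjusted p under 0.05, which is 57.9% of all genes (27.0% higher in KASUMI-1 and 30.8% higher in THP-1). With vehicle the test called 55.2% (25.6% higher in KASUMI-1 and 29.7% higher in THP-1). Of the treated calls 79.9% were also called with vehicle, and 83.7% of the vehicle calls were also called with LSD1i. The gaps, which are the log2 fold of KASUMI-1 over THP-1, correlated with r = 0.954 across the 16060 genes, where genes share libraries and are not independent replicates. The median size of the gap was 0.777 with LSD1i and 0.725 with vehicle. A gap of at least 2-fold was found for 6483 genes with LSD1i, and for 6571 when the 72 h libraries were used alone. Of the 9292 treated calls, 9291 had the same sign at 72 h alone.

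The change of the gap, which is the LSD1i gap minus the vehicle gap, was tested in 1 fit of all 8 libraries with each line and time as a pair. It was called for 914 genes or 5.69%, of which 421 moved toward KASUMI-1 (2.62%) and 493 toward THP-1 (3.07%). Without the pairing 22 genes were called, 4 toward KASUMI-1 and 18 toward THP-1. Of the 51 called changes of genes named below, 38 were not called without it, among them those of S100A8, S100A9, VCAN, KIT, IFI30 and CTSH. DESeq2 called 862 genes, 296 toward KASUMI-1 and 566 toward THP-1, so that the share toward KASUMI-1 was 34.3% there against 46.1% in edgeR. The count depended on which pair of libraries was left out. Such a fit has fewer residual degrees of freedom, and its spread comes from the line that keeps both pairs. The counts therefore cannot show which libraries carried the calls. Leaving out the KASUMI-1 pair of 6 h gave 1713 genes and leaving out that of 72 h gave 709. Leaving out the THP-1 pair of 24 h gave 165 genes and leaving out that of 72 h gave 126.

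The 3 tests together gave 5 classes, while 8205 genes (51.1%) fell in none, among them 66 with a called change. A gap was kept in 7007 genes, which were called in both states with the same sign and without a called change, 3128 higher in KASUMI-1 and 3879 higher in THP-1. It widened in 447 genes (210 higher in KASUMI-1 and 237 in THP-1), and in 243 of these the vehicle gap had not been called, so that the difference opened with LSD1i. It narrowed in 193 genes, with both gaps called. It closed in 191 genes, whose vehicle gap was called and whose LSD1i gap was not. It reversed in 17 genes, which were called in both states with opposite signs. Where a gap widened, the LSD1i response of KASUMI-1 alone was called in 212 genes and that of THP-1 alone in 172. Where it narrowed, the counts were 50 and 102, and where it closed 96 and 65. Among kept genes they were 507 and 511, and among genes in no class 708 and 281. In the genes of no class KASUMI-1 alone was thus called more often too, and differences between classes were not tested.

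**Figure D1:**
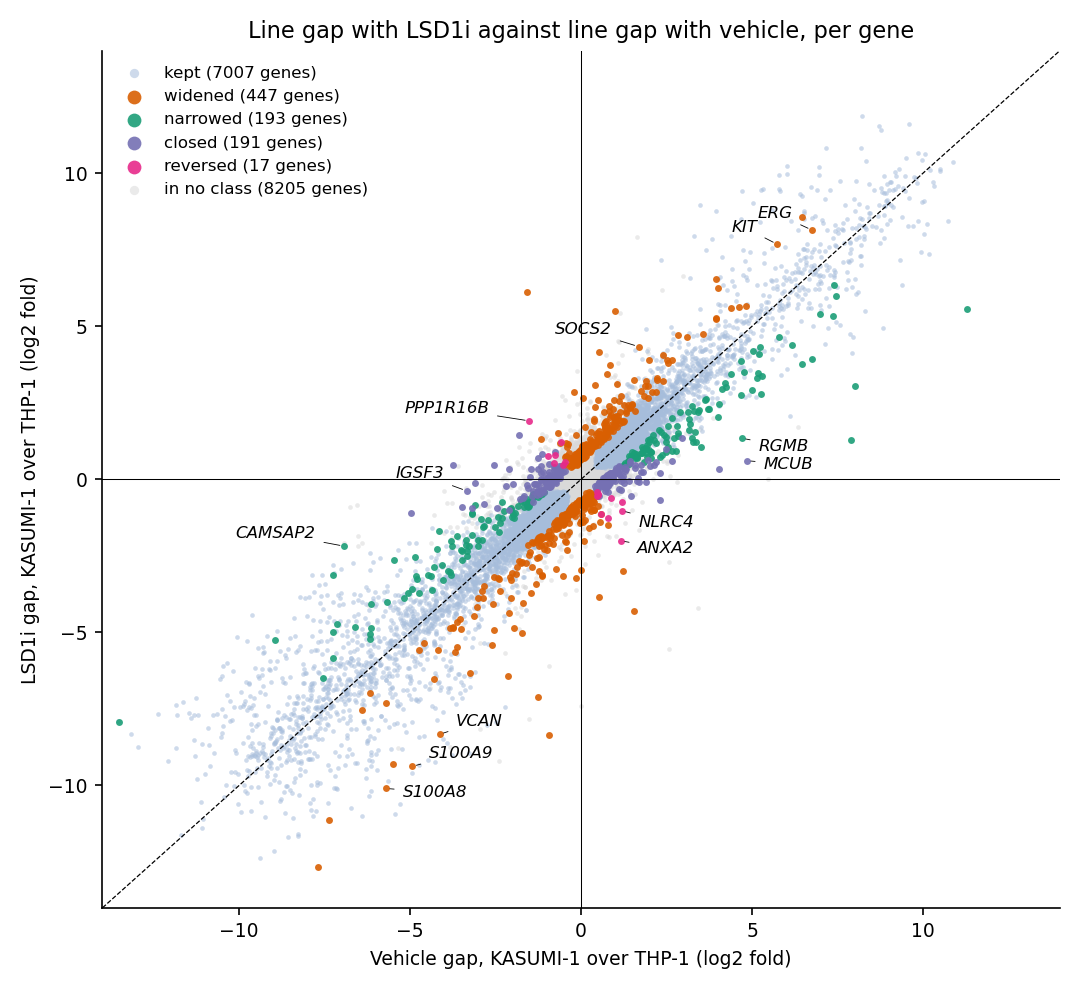
Gap between the lines with LSD1i (vertical axis) against the gap with vehicle (horizontal axis), both as log2 fold of KASUMI-1 over THP-1, with 1 point per gene for 16060 genes coloured by class and the line of equal gaps dashed. The 7007 kept genes lie along the dashed line, while S100A8, S100A9 and VCAN lie below it and MCUB and ANXA2 lie far from it on the right. Folds of genes with almost no reads in a group depend on the prior count of the fit.

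**Figure D2:**
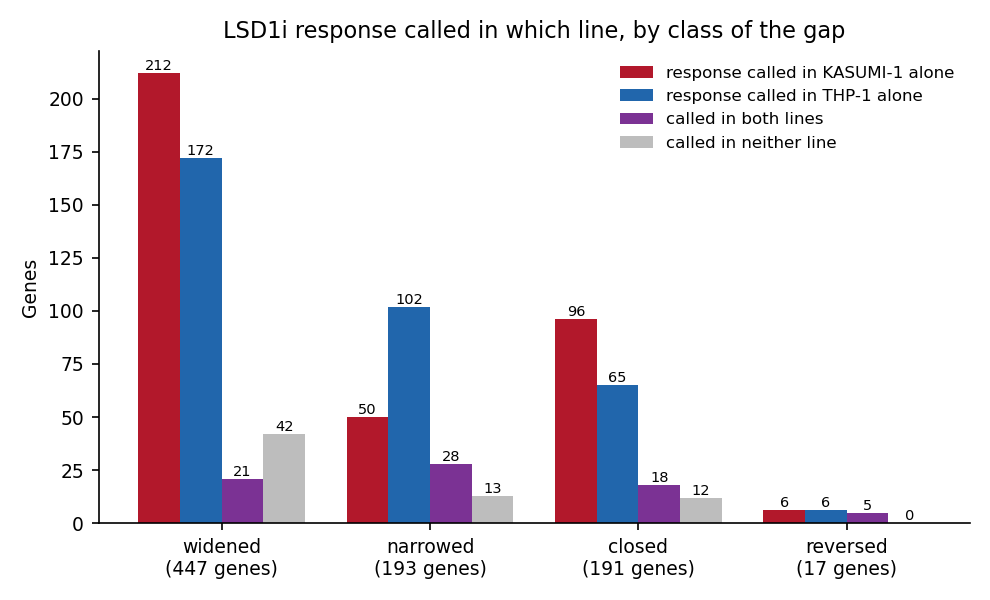
Number of genes (vertical axis) in each class whose LSD1i response was called in KASUMI-1 alone, in THP-1 alone, in both lines or in neither. In the widened class 212 genes had a called response in KASUMI-1 alone and 172 in THP-1 alone, and in the narrowed class 50 and 102.

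Most stem and progenitor genes were higher in KASUMI-1 in both states. With LSD1i the shares over all genes were 27.0% higher in KASUMI-1 and 30.8% higher in THP-1. Changes were called in 2.62% of all genes toward KASUMI-1 and in 3.07% toward THP-1. Of the 21 stem and progenitor genes tested, 14 were higher in KASUMI-1 and 5 higher in THP-1 with LSD1i, and 2 were not called. With vehicle the counts were 14, 5 and 2. The median gap was 2.35 with LSD1i and 2.32 with vehicle (log2), and the gap changed toward KASUMI-1 in 2 members and toward THP-1 in 0 members. CD34, the surface antigen of stem and progenitor cells, had 629.6 and 998 CPM in KASUMI-1 with LSD1i, against 0.849 and 1.44 CPM in THP-1 with LSD1i. Its gap was 9.48 ± 0.39 (adjusted p = 1.18e-06), against 9.17 ± 0.24 with vehicle (log2, SE, n = 2 libraries per line, as for all gaps below). The granule gene list was more evenly split, with 6 of 16 higher in KASUMI-1 and 8 higher in THP-1. Within it MPO, the myeloperoxidase of azurophil granules, had 6997 and 8023 CPM in KASUMI-1 with LSD1i, against 10.2 and 11.2 CPM in THP-1 with LSD1i, a gap of 9.44 ± 0.29 (adjusted p = 4.99e-07). For both genes every KASUMI-1 library lay far above every THP-1 library. ANGPT1, a ligand of the TEK receptor, had a gap of 10.49 ± 0.35 (adjusted p = 6.08e-07) and CYTL1, a cytokine-like protein of CD34+ cells, one of 10.44 ± 0.50 (adjusted p = 2.32e-06). CD200, a ligand that restrains myeloid cells, had a gap of 10.14 ± 0.38 (adjusted p = 8.43e-07) and EPCAM, an adhesion molecule of epithelia, one of 9.71 ± 0.23 (adjusted p = 4.64e-07). None of these changes of the gap was called (adjusted p = 0.463 to 0.861). Genes were named in part by the size of their LSD1i gap, so the gaps of ANGPT1, CYTL1, CD200 and EPCAM are no further evidence on the stem and progenitor list.

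Of the myeloid transcription factors more were higher in THP-1 than in KASUMI-1 in both states. Among all genes with LSD1i 27.0% were higher in KASUMI-1 and 30.8% in THP-1, and 2.62% changed toward KASUMI-1 and 3.07% toward THP-1. Of the 28 myeloid transcription factors tested, 5 were higher in KASUMI-1 and 17 higher in THP-1 with LSD1i, and 6 were not called. The vehicle libraries gave 5, 15 and 8. Median gaps were -1.39 with LSD1i and -0.82 with vehicle (log2), and the gap changed toward KASUMI-1 in 1 member and toward THP-1 in 4 members. IRF8, which commits progenitors to monocytes and dendritic cells, had 4.76 and 6.84 CPM in KASUMI-1 with LSD1i, against 695 and 541 CPM in THP-1 with LSD1i, a gap of -6.75 ± 0.27 (adjusted p = 1.17e-06). CEBPA, the C/EBP factor of early myeloid differentiation, had 9.23 and 13.1 CPM in KASUMI-1 with LSD1i, against 339 and 262 CPM in THP-1 with LSD1i, a gap of -4.76 ± 0.24 (adjusted p = 2.94e-06). SPI1, which encodes PU.1, was closer between the lines, with 63.1 and 59.3 CPM in KASUMI-1 with LSD1i, against 175 and 133 CPM in THP-1 with LSD1i and a gap of -1.35 ± 0.18 (adjusted p = 0.000382). CEBPE, the C/EBP factor of late granulocytes, was the other way round, with 30.7 and 27.9 CPM in KASUMI-1 with LSD1i, against 3.42 and 4.12 CPM in THP-1 with LSD1i. Its gap narrowed to 2.95 ± 0.21 (adjusted p = 1.57e-05), against 4.13 ± 0.22 (adjusted p = 8.55e-08) with vehicle, a change of -1.17 ± 0.23 (adjusted p = 0.00747). MITF, which drives lysosome and pigment genes, had 0.89 and 0.268 CPM in KASUMI-1 with LSD1i, against 8.25 and 10.7 CPM in THP-1 with LSD1i, and its gap widened to -4.04 ± 0.48 (adjusted p = 0.000239), against -1.71 ± 0.44 (adjusted p = 0.00707) with vehicle. The change of CEBPE was not called without the THP-1 24 h or the THP-1 72 h pair (adjusted p = 0.0989 to 0.125). The change of MITF was not called without the KASUMI-1 6 h or the THP-1 72 h pair (adjusted p = 0.0528 to 0.125).

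The HOXA and KMT2A fusion genes kept a mixed pattern, with a KASUMI-1 count near the 27.0% of all genes. Of all genes 30.8% were higher in THP-1 with LSD1i, and 2.62% changed toward KASUMI-1 and 3.07% toward THP-1. Of the 25 genes of the HOXA cluster and targets of KMT2A fusions tested, 6 were higher in KASUMI-1 and 11 higher in THP-1 with LSD1i, and 8 were not called. In vehicle these numbers were 6, 12 and 7. Over the list the gap had a median of -0.01 with LSD1i and -0.81 with vehicle (log2), and it changed toward KASUMI-1 in 3 members and toward THP-1 in 0 members. HOXA9 had a gap of -5.36 ± 0.21 (adjusted p = 1.1e-06) with LSD1i and -5.68 ± 0.24 (adjusted p = 1.96e-08) with vehicle. PBX3, a cofactor of HOXA9, had 0.916 and 0.779 CPM in KASUMI-1 with LSD1i, against 115 and 126 CPM in THP-1 with LSD1i, a gap of -7.16 ± 0.21 (adjusted p = 4.89e-07). FLT3, a receptor kinase often mutated in acute myeloid leukaemia, had 6.44 and 12.2 CPM in KASUMI-1 with LSD1i, against 61.2 and 54.6 CPM in THP-1 with LSD1i, a gap of -2.65 ± 0.28 (adjusted p = 0.000139). HOXA3 was higher in KASUMI-1, with 1.91 and 2.65 CPM in KASUMI-1 with LSD1i, against 0.0894 and 0.198 CPM in THP-1 with LSD1i and a gap of 3.99 ± 0.47 (adjusted p = 0.000219). The 3 members whose gap changed were CDK6, BCL2 and MEF2C. CDK6, a kinase of the G1 phase, had 543 and 569 CPM in KASUMI-1 with LSD1i, against 137 and 158 CPM in THP-1 with LSD1i, and its gap widened to 1.9 ± 0.16 (adjusted p = 4.45e-05), against 0.74 ± 0.16 (adjusted p = 0.00233) with vehicle. BCL2, an inhibitor of apoptosis, had 38.5 and 46.5 CPM in KASUMI-1 with LSD1i, against 74.3 and 81.1 CPM in THP-1 with LSD1i, and its gap narrowed to -0.88 ± 0.16 (adjusted p = 0.00189), against -1.59 ± 0.18 (adjusted p = 2.62e-05) with vehicle. MEF2C had 113 and 119 CPM in KASUMI-1 with LSD1i, against 89.6 and 92.4 CPM in THP-1 with LSD1i, and was called in neither state, with a change of 0.73 ± 0.17 (adjusted p = 0.0209). The change of CDK6 was not called without the THP-1 24 h or the THP-1 72 h pair (adjusted p = 0.062 to 0.0627). The changes of BCL2 and MEF2C were not called without the KASUMI-1 72 h, THP-1 24 h or the THP-1 72 h pair (adjusted p = 0.0514 to 0.224).

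KDM1A was higher in KASUMI-1 and its scaffold RCOR1 higher in THP-1, as they were with vehicle. The list counts below stand beside 27.0% of all genes higher in KASUMI-1 and 30.8% higher in THP-1 with LSD1i. Changes over all genes were 2.62% toward KASUMI-1 and 3.07% toward THP-1. Of the 23 LSD1 and corepressor genes tested, 10 were higher in KASUMI-1 and 6 higher in THP-1 with LSD1i, and 7 were not called. Vehicle counts, in the same order, were 5, 5 and 13. At the median the gap stood at -0.001 with LSD1i and -0.12 with vehicle (log2), and it changed toward KASUMI-1 in 2 members and toward THP-1 in 0 members. KDM1A had 182 and 224 CPM in KASUMI-1 with LSD1i, against 112 and 93.5 CPM in THP-1 with LSD1i, a gap of 0.96 ± 0.17 (adjusted p = 0.00199), against 1.08 ± 0.18 (adjusted p = 0.000498) with vehicle. RCOR1, the CoREST scaffold, had 55.1 and 51.8 CPM in KASUMI-1 with LSD1i, against 102 and 102 CPM in THP-1 with LSD1i, a gap of -0.95 ± 0.14 (adjusted p = 0.000769). GFI1 had 267 and 412 CPM in KASUMI-1 with LSD1i, against 343 and 329 CPM in THP-1 with LSD1i, and the lines overlapped. Its gap was -0.001 ± 0.21 (adjusted p = 0.998), with a 95% interval of -0.49 to 0.49. GFI1B, the paralog of erythroid and megakaryocyte cells, was low in all libraries, with 1.22 and 3.46 CPM in KASUMI-1 with LSD1i, against 0.134 and 0.424 CPM in THP-1 with LSD1i. Its gap opened to 3.09 ± 0.66 (adjusted p = 0.00463), against 0.41 ± 0.41 (adjusted p = 0.413) with vehicle, and the change was 2.53 ± 0.62 (adjusted p = 0.0242). RUNX1 counts cannot separate RUNX1 from the fusion transcript. RUNX1 had 206 and 244 CPM in KASUMI-1 with LSD1i, against 85.8 and 72.9 CPM in THP-1 with LSD1i, and its gap widened to 1.49 ± 0.17 (adjusted p = 0.000167), against 0.68 ± 0.16 (adjusted p = 0.00389) with vehicle. Of the 10 partners and paralogs of the fusion tested, 3 were higher in KASUMI-1 and 4 higher in THP-1 with LSD1i, and 3 were not called. Their counts with vehicle came to 3, 5 and 2. This list had a median gap of -0.04 with LSD1i and -0.44 with vehicle (log2), and the gap changed toward KASUMI-1 in 2 members and toward THP-1 in 0 members. RUNX2, a paralog of RUNX1, had 32.9 and 42.2 CPM in KASUMI-1 with LSD1i, against 36.1 and 58.2 CPM in THP-1 with LSD1i, and its gap closed to -0.34 ± 0.24 (adjusted p = 0.251), against -1.14 ± 0.22 (adjusted p = 0.00111) with vehicle. The changes of GFI1B and RUNX2 were not called without the KASUMI-1 72 h, THP-1 24 h or the THP-1 72 h pair (adjusted p = 0.0754 to 0.287). The change of RUNX1 was not called without the THP-1 24 h or the THP-1 72 h pair (adjusted p = 0.0684 to 0.24).

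Monocyte genes were mostly higher in THP-1, and several gaps widened with LSD1i. Of the 52 monocyte and macrophage genes tested, 3 were higher in KASUMI-1 and 43 higher in THP-1 with LSD1i, and 6 were not called. With vehicle the counts were 3, 38 and 11. The median gap was -3.0 with LSD1i and -2.87 with vehicle (log2), and the gap changed toward KASUMI-1 in 1 member and toward THP-1 in 11 members. Across all genes 30.8% were higher in THP-1 and 3.07% changed toward THP-1. S100A8 and S100A9 encode the chains of calprotectin, an antimicrobial complex of monocytes and neutrophils. S100A8 (chromosome 1, 151629132 to 151630173, - strand, NCBI36) had 0.814 and 2.19 CPM in KASUMI-1 with LSD1i, against 679 and 2608 CPM in THP-1 with LSD1i, while the vehicle libraries had 1.18 and 2.45 CPM in KASUMI-1 and 129 and 50.5 CPM in THP-1. Its gap was -10.1 ± 0.85 (adjusted p = 3.99e-05) with LSD1i and -5.71 ± 0.49 (adjusted p = 3e-06) with vehicle, a change of -4.34 ± 0.86 (adjusted p = 0.0069). S100A9 (chromosome 1, 151596954 to 151600126, + strand) had 5.09 and 5.31 CPM in KASUMI-1 with LSD1i, against 1315 and 5549.6 CPM in THP-1 with LSD1i, and 6.3 and 6.19 CPM in KASUMI-1 with vehicle, against 256 and 122 CPM in THP-1 with vehicle. Its gap was -9.38 ± 0.77 (adjusted p = 3.6e-05) with LSD1i and -4.94 ± 0.34 (adjusted p = 5.69e-07) with vehicle, a change of -4.19 ± 0.67 (adjusted p = 0.00142). In KASUMI-1 neither response to LSD1i was called (adjusted p = 0.832 for S100A8 and 0.781 for S100A9), and in THP-1 both LSD1i libraries were above both vehicle libraries. VCAN, the proteoglycan versican of classical monocytes, had 0.204 and 0.463 CPM in KASUMI-1 with LSD1i, against 47.8 and 168 CPM in THP-1 with LSD1i and a change of -4.04 ± 1.0 (adjusted p = 0.0248). S100A12, another S100 gene of these cells, had 6 reads over both KASUMI-1 LSD1i libraries and 11292 over both THP-1 LSD1i libraries. ITGAM, the CD11b integrin chain, had 1.37 and 1.22 CPM in KASUMI-1 with LSD1i, against 65.2 and 58.3 CPM in THP-1 with LSD1i, and its gap widened to -5.59 ± 0.21 (adjusted p = 8.18e-07), against -4.17 ± 0.33 (adjusted p = 1.77e-06) with vehicle. In ITGAM both lines rose, by 1.36 ± 0.29 (adjusted p = 0.00682) in KASUMI-1 and 2.74 ± 0.16 (adjusted p = 1.7e-09) in THP-1. Without the pairing the changes of S100A8, S100A9, VCAN and ITGAM were not called. The changes of S100A8, S100A9 and VCAN were called in all 4 fits that left out 1 pair. The change of ITGAM was not called without the KASUMI-1 6 h, THP-1 24 h or the THP-1 72 h pair (adjusted p = 0.133 to 0.488).

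The promoters of the 3 widened genes S100A8, S100A9 and ITGAM are shown as RefSeq lists them (GRCh38.p14, 250 bases before and 50 after the start, 5′ to 3′ on the gene's strand), at chr1:153391139-153391438 (-), chr1:153357604-153357903 (+) and chr16:31259725-31260024 (+). Capitals mark a RUNX core (TGTGGT), a PU.1 core (GAGGAA), a C/EBP core (TTGCNNAA) or a GFI1 core (AAATCA) on either strand. In ITGAM the RUNX core and the second PU.1 core share 1 base, and no other matches overlap. Of 35116 RefSeq promoters of this length 13.1% held the RUNX core, 27.9% the PU.1 core, 10.5% the C/EBP core and 13.2% the GFI1 core. S100A8 held 1 PU.1 core, S100A9 held 1 RUNX and 1 PU.1 core, and ITGAM held 1 RUNX and 2 PU.1 cores. RefSeq lists 3 starts for S100A8, and the one farthest upstream is shown and was searched. These are matches of letters and no binding was measured.
S100A8: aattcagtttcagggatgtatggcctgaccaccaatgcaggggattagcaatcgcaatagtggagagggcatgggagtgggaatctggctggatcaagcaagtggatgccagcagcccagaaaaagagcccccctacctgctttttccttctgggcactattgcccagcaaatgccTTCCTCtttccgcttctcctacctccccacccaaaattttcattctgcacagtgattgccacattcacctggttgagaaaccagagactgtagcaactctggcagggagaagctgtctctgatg
S100A9: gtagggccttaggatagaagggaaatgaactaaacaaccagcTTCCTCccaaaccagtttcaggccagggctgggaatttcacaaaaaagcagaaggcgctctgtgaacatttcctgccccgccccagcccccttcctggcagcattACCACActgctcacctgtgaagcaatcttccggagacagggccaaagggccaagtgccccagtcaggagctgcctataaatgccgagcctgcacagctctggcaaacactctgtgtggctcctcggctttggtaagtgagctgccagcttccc
ITGAM: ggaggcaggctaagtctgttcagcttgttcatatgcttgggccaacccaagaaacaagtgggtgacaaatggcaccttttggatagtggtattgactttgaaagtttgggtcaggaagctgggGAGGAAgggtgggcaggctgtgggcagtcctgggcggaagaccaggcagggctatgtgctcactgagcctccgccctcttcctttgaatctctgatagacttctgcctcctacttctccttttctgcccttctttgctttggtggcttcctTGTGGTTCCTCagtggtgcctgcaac

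On the KASUMI-1 side the gap widened in 210 genes, of which 6 are described here. KIT (chromosome 4, 55218852 to 55301636, + strand, NCBI36), the receptor of stem cell factor, had 467 and 585 CPM in KASUMI-1 with LSD1i, against 3.2 and 1.81 CPM in THP-1 with LSD1i, and 506 and 709 CPM in KASUMI-1 with vehicle, against 8.07 and 14.7 CPM in THP-1 with vehicle. Its gap was 7.68 ± 0.32 (adjusted p = 1.3e-06) with LSD1i and 5.73 ± 0.31 (adjusted p = 1.01e-07) with vehicle, a change of 1.91 ± 0.33 (adjusted p = 0.00262). The KASUMI-1 response was -0.20 ± 0.20 (adjusted p = 0.585), and both THP-1 LSD1i libraries were below both THP-1 vehicle libraries. ERG, an ETS factor of stem cells, had 125 and 190.4 CPM in KASUMI-1 with LSD1i, against 0.559 and 0.537 CPM in THP-1 with LSD1i, and a change of 1.38 ± 0.29 (adjusted p = 0.01). SOCS2, a feedback inhibitor of cytokine receptors, had 21.5 and 40.4 CPM in KASUMI-1 with LSD1i, against 1.99 and 0.989 CPM in THP-1 with LSD1i, and 20.0 and 21 CPM in KASUMI-1 with vehicle, against 6.39 and 6.27 CPM in THP-1 with vehicle. Its change was 2.62 ± 0.32 (adjusted p = 0.000112). RASGRP3, an activator of RAS, had 9.16 and 14.7 CPM in KASUMI-1 with LSD1i, against 1.72 and 0.367 CPM in THP-1 with LSD1i, and a change of 2.79 ± 0.50 (adjusted p = 0.00343). SULT1C2, a sulfotransferase, had 21.8 and 42.1 CPM in KASUMI-1 with LSD1i, against 0.335 and 0.339 CPM in THP-1 with LSD1i and a change of 2.58 ± 0.36 (adjusted p = 0.000411). AFF2, a gene of the AF4 family of elongation factors, had 42.2 and 50.5 CPM in KASUMI-1 with LSD1i, against 8.34 and 6.89 CPM in THP-1 with LSD1i. Its gap opened to 2.59 ± 0.19 (adjusted p = 2.14e-05), against 0.48 ± 0.21 (adjusted p = 0.0685) with vehicle, and its change was also called without the pairing (adjusted p = 0.0199). Those of KIT, ERG, SOCS2, RASGRP3 and SULT1C2 were not called without it. The changes of SOCS2, SULT1C2 and AFF2 were called in all 4 fits that left out 1 pair. The changes of KIT and RASGRP3 were not called without the THP-1 72 h pair (adjusted p = 0.0927 to 0.108). The change of ERG was not called without the THP-1 24 h or the THP-1 72 h pair (adjusted p = 0.138 to 0.155). The promoter of KIT, at chr4:54657707-54658006 (+), held none of the 4 cores.
KIT: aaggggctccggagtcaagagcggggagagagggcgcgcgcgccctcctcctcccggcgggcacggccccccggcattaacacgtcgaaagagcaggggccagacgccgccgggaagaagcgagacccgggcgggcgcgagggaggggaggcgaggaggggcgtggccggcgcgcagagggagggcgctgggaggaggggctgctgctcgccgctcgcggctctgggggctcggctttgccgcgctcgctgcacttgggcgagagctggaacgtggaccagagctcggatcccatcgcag

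**Figure D3:**
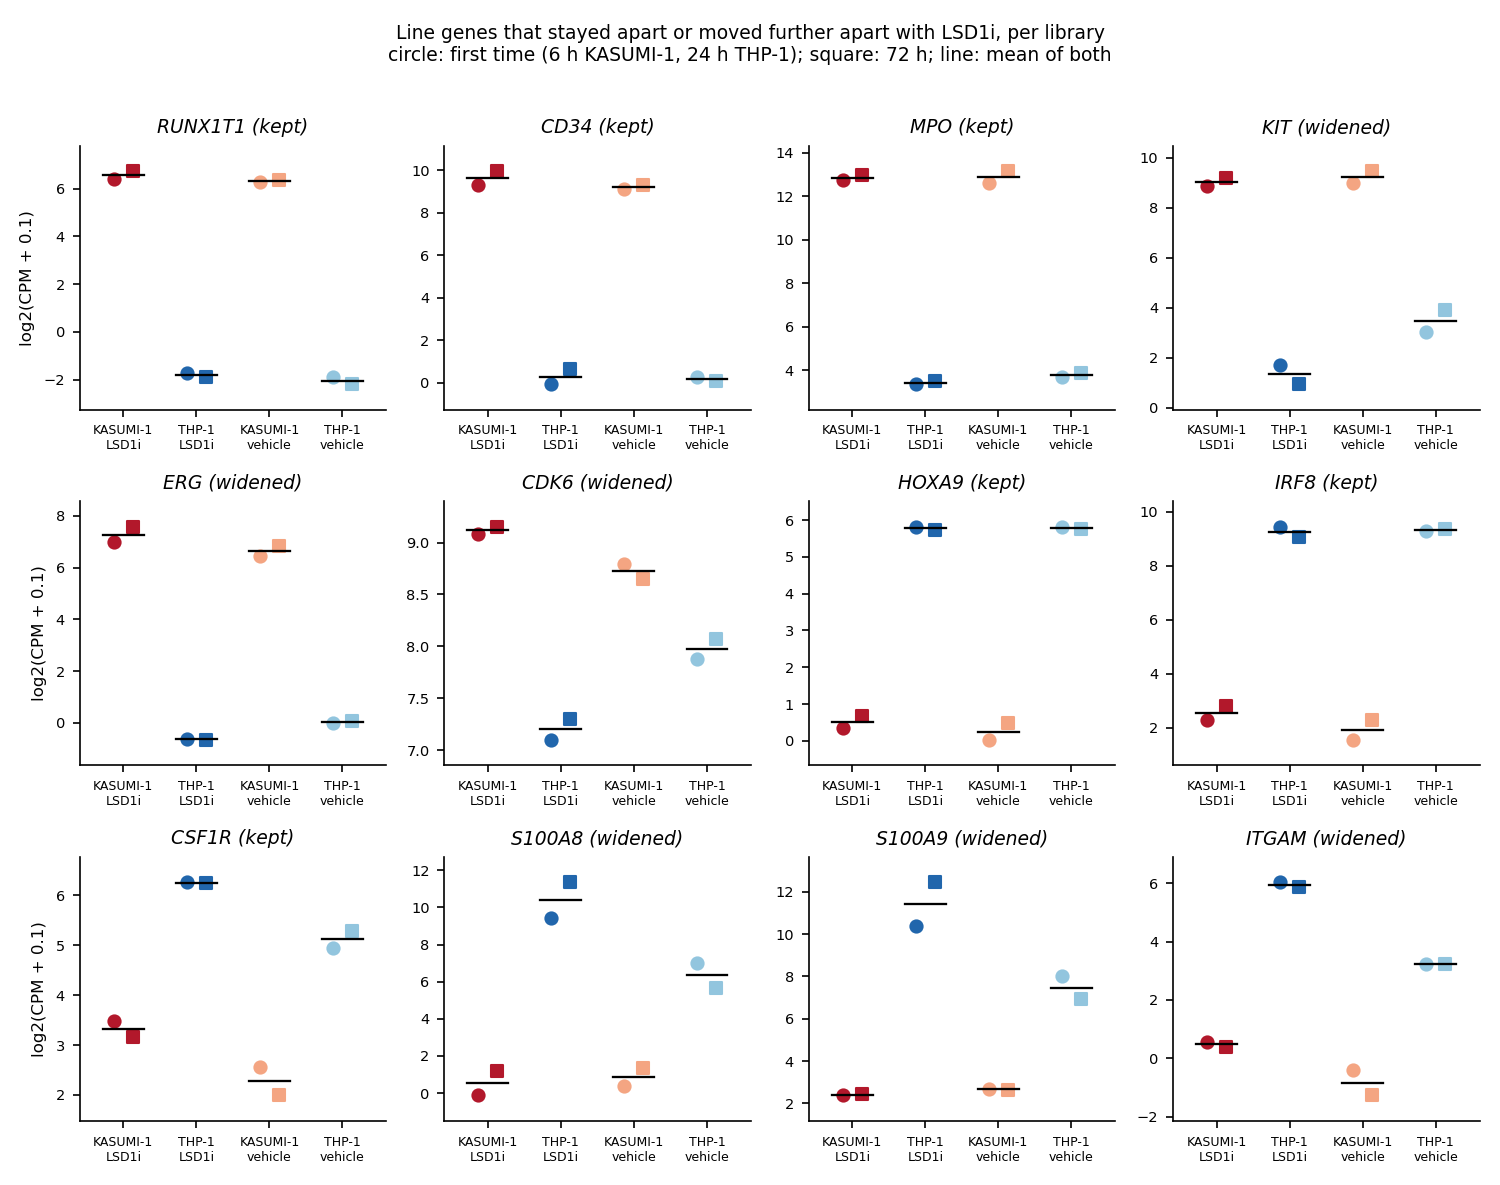
Values of 12 genes with a kept or widened gap in each library, as log2 of CPM plus 0.1 (vertical axis, own range per panel), for KASUMI-1 with LSD1i, THP-1 with LSD1i, KASUMI-1 with vehicle and THP-1 with vehicle, circles for the first time, squares for 72 h and lines for the mean of both. In RUNX1T1, CD34, MPO, HOXA9 and IRF8 the lines are apart in both states and the change of the gap was not called, the THP-1 level of KIT is lower with LSD1i, and the THP-1 levels of S100A8, S100A9 and ITGAM are higher with LSD1i.

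Where a gap narrowed, the response of THP-1 alone was called in 102 of 193 genes and that of KASUMI-1 alone in 50. RGMB, a coreceptor of bone morphogenetic proteins, had 25.1 and 31.6 CPM in KASUMI-1 with LSD1i, against 11.1 and 11 CPM in THP-1 with LSD1i, and 5.72 and 7.97 CPM in KASUMI-1 with vehicle, against 0.252 and 0.261 CPM in THP-1 with vehicle. Both lines rose, KASUMI-1 by 2.06 ± 0.16 (adjusted p = 3.34e-07) and THP-1 by 5.41 ± 0.24 (adjusted p = 8.07e-11), so that the gap narrowed to 1.34 ± 0.19 (adjusted p = 0.000551), against 4.7 ± 0.34 (adjusted p = 8.47e-07) with vehicle. CAMSAP2, a protein of microtubule minus ends, had 3.41 and 7.26 CPM in KASUMI-1 with LSD1i, against 26.2 and 21.8 CPM in THP-1 with LSD1i, and 0.289 and 0.134 CPM in KASUMI-1 with vehicle, against 30.6 and 25.5 CPM in THP-1 with vehicle. Here KASUMI-1 rose by 4.37 ± 0.33 (adjusted p = 2.22e-07), and the gap narrowed to -2.18 ± 0.34 (adjusted p = 0.000896), against -6.93 ± 0.34 (adjusted p = 4.23e-08) with vehicle. STC2, a secreted glycoprotein raised by ATF4, had 9.97 and 14.2 CPM in KASUMI-1 with LSD1i, against 1.52 and 1.92 CPM in THP-1 with LSD1i, and its gap narrowed to 2.8 ± 0.29 (adjusted p = 0.000111), against 5.25 ± 0.30 (adjusted p = 1.25e-07) with vehicle. SRD5A1, a steroid reductase, had 11.4 and 17.1 CPM in KASUMI-1 with LSD1i, against 5.12 and 8.62 CPM in THP-1 with LSD1i, and its gap narrowed to 1.05 ± 0.31 (adjusted p = 0.0199), against 3.5 ± 0.26 (adjusted p = 1.12e-06) with vehicle. HERC5, the ligase of the interferon-induced modifier ISG15, had 46.5 and 47.6 CPM in KASUMI-1 with LSD1i, against 21.1 and 27.5 CPM in THP-1 with LSD1i, and its gap narrowed to 0.94 ± 0.18 (adjusted p = 0.00258), against 2.77 ± 0.21 (adjusted p = 1.08e-06) with vehicle. The changes of RGMB, CAMSAP2, STC2, SRD5A1 and HERC5 were called in all 4 fits that left out 1 pair. The LSD1i gap of SRD5A1 was not called without the KASUMI-1 72 h or the THP-1 24 h library (adjusted p = 0.0858 to 0.108).

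Where a gap closed, the response of KASUMI-1 alone was called in 96 of 191 genes and that of THP-1 alone in 65. KASUMI-1 alone was also called more often among genes in no class (708 against 281). MCUB (chromosome 4, 110700814 to 110829331, + strand, NCBI36), a subunit that restrains the mitochondrial calcium uniporter, had 53.7 and 63.6 CPM in KASUMI-1 with LSD1i, against 26.4 and 49.9 CPM in THP-1 with LSD1i, and 47.4 and 51.1 CPM in KASUMI-1 with vehicle, against 2.0 and 1.38 CPM in THP-1 with vehicle. Its gap was 0.61 ± 0.28 (adjusted p = 0.0904) with LSD1i, with a 95% interval of -0.03 to 1.25, and 4.84 ± 0.24 (adjusted p = 5.41e-08) with vehicle. STX10, a syntaxin of the Golgi, had 52.7 and 66.7 CPM in KASUMI-1 with LSD1i, against 66.3 and 60.6 CPM in THP-1 with LSD1i, and 60.6 and 97.5 CPM in KASUMI-1 with vehicle, against 21.8 and 20.1 CPM in THP-1 with vehicle. The lines overlapped with LSD1i and were apart with vehicle, and the LSD1i gap had a 95% interval of -0.48 to 0.28. GCNT2, which branches poly-N-acetyllactosamine chains, had 6.41 and 6.04 CPM in KASUMI-1 with LSD1i, against 7.82 and 11.8 CPM in THP-1 with LSD1i, and a change of -2.93 ± 0.32 (adjusted p = 4.5e-05). VEGFA, the growth factor of blood vessels, had 37.1 and 41.2 CPM in KASUMI-1 with LSD1i, against 30.5 and 35.3 CPM in THP-1 with LSD1i, and 37.1 and 45.6 CPM in KASUMI-1 with vehicle, against 13.2 and 11 CPM in THP-1 with vehicle. HK2, the hexokinase raised by hypoxia, had 92.6 and 103 CPM in KASUMI-1 with LSD1i, against 81.4 and 49.3 CPM in THP-1 with LSD1i, and 82 and 96.5 CPM in KASUMI-1 with vehicle, against 18.2 and 20.3 CPM in THP-1 with vehicle. In these 5 genes both THP-1 libraries were higher with LSD1i than with vehicle. In IGSF3, an immunoglobulin superfamily protein, KASUMI-1 rose by 4.0 ± 0.29 (adjusted p = 1.89e-07) and THP-1 by 1.08 ± 0.20 (adjusted p = 0.00138), with 4.68 and 7.11 CPM in KASUMI-1 with LSD1i, against 8.14 and 7.01 CPM in THP-1 with LSD1i, and 0.315 and 0.401 CPM in KASUMI-1 with vehicle, against 3.3 and 3.85 CPM in THP-1 with vehicle. TLR1, a receptor of bacterial lipopeptides, had 7.99 and 12.8 CPM in KASUMI-1 with LSD1i, against 13.4 and 9.29 CPM in THP-1 with LSD1i, and 0.997 and 0.534 CPM in KASUMI-1 with vehicle, against 4.44 and 1.85 CPM in THP-1 with vehicle. In TLR1 both lines rose, KASUMI-1 by 3.61 ± 0.30 (adjusted p = 7.28e-07) and THP-1 by 1.92 ± 0.24 (adjusted p = 2.66e-05). SLC7A11, the cystine carrier, had 14.6 and 3.87 CPM in KASUMI-1 with LSD1i, against 6.42 and 3.93 CPM in THP-1 with LSD1i, and 10.7 and 4.54 CPM in KASUMI-1 with vehicle, against 19.9 and 13.8 CPM in THP-1 with vehicle. Its KASUMI-1 values were lower at 72 h than at 6 h in both states, and the gap at 72 h alone was -0.02 with LSD1i and -1.59 with vehicle. The changes of MCUB, STX10, GCNT2, VEGFA, HK2, IGSF3 and SLC7A11 were called in all 4 fits that left out 1 pair. The change of TLR1 was not called without the KASUMI-1 72 h, THP-1 24 h or the THP-1 72 h pair (adjusted p = 0.0665 to 0.272). A gap that was not called is not shown to be 0, as the intervals above give.

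In 17 genes the order of the lines turned over, and 10 of these were higher in KASUMI-1 with vehicle and higher in THP-1 with LSD1i. ANXA2 (chromosome 15, 58426625 to 58477477, - strand, NCBI36), a calcium-dependent membrane protein, had 205 and 198 CPM in KASUMI-1 with LSD1i, against 768 and 838 CPM in THP-1 with LSD1i, and 143 and 151 CPM in KASUMI-1 with vehicle, against 78.6 and 51.8 CPM in THP-1 with vehicle. Its gap was -2.01 ± 0.17 (adjusted p = 3.53e-05) with LSD1i and 1.16 ± 0.21 (adjusted p = 0.00081) with vehicle, a change of -3.19 ± 0.23 (adjusted p = 5.74e-07). THP-1 rose by 3.65 ± 0.17 (adjusted p = 1.45e-10), while the KASUMI-1 response was 0.46 ± 0.15 (adjusted p = 0.0629). Reads of ANXA2 that also match its processed pseudogenes were not counted. NLRC4, an inflammasome protein, had 11.1 and 12.7 CPM in KASUMI-1 with LSD1i, against 20.4 and 27.5 CPM in THP-1 with LSD1i, and 4.72 and 6.9 CPM in KASUMI-1 with vehicle, against 2.63 and 2.38 CPM in THP-1 with vehicle. GNA15, a G protein subunit of blood cells, had 57.2 and 49.1 CPM in KASUMI-1 with LSD1i, against 93.1 and 157 CPM in THP-1 with LSD1i, and 67.4 and 64.6 CPM in KASUMI-1 with vehicle, against 28.3 and 47 CPM in THP-1 with vehicle. GABARAP, a ubiquitin-like protein of autophagosomes, had 79 and 107 CPM in KASUMI-1 with LSD1i, against 142 and 168 CPM in THP-1 with LSD1i, and 94.8 and 103 CPM in KASUMI-1 with vehicle, against 39.5 and 46.3 CPM in THP-1 with vehicle. CD53, a tetraspanin of leukocytes, had 179 and 236 CPM in KASUMI-1 with LSD1i, against 302 and 328 CPM in THP-1 with LSD1i, and 90.3 and 100.1 CPM in KASUMI-1 with vehicle, against 58.2 and 45.3 CPM in THP-1 with vehicle. EIF4EBP1, the translation repressor that mTORC1 phosphorylates, had 88.1 and 73.8 CPM in KASUMI-1 with LSD1i, against 109 and 125 CPM in THP-1 with LSD1i, and 112 and 124 CPM in KASUMI-1 with vehicle, against 86 and 82.1 CPM in THP-1 with vehicle. In each of these 6 genes, ANXA2 to EIF4EBP1, both treated THP-1 libraries lay above both treated KASUMI-1 libraries and the vehicle libraries lay the other way. In the other direction ZMAT1, a zinc finger gene, had 22.1 and 31.6 CPM in KASUMI-1 with LSD1i, against 10.5 and 12.7 CPM in THP-1 with LSD1i, and 9.74 and 12.3 CPM in KASUMI-1 with vehicle, against 16.4 and 16.7 CPM in THP-1 with vehicle. PPP1R16B, a regulatory subunit of protein phosphatase, had 3.97 and 15.8 CPM in KASUMI-1 with LSD1i, against 3.0 and 2.17 CPM in THP-1 with LSD1i, and 1.63 and 1.78 CPM in KASUMI-1 with vehicle, against 4.92 and 4.7 CPM in THP-1 with vehicle.

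The changes of the reversed genes were -2.18 ± 0.26 (adjusted p = 9.28e-05) for NLRC4, -2.04 ± 0.17 (adjusted p = 3.36e-06) for GNA15, -1.95 ± 0.18 (adjusted p = 7.44e-06) for GABARAP and -1.5 ± 0.20 (adjusted p = 0.000203) for CD53. They were -1.02 ± 0.19 (adjusted p = 0.0041) for EIF4EBP1, 1.79 ± 0.21 (adjusted p = 8.89e-05) for ZMAT1 and 3.12 ± 0.43 (adjusted p = 0.000354) for PPP1R16B. The changes of ANXA2, NLRC4, GNA15, GABARAP, CD53, ZMAT1 and PPP1R16B were called in all 4 fits that left out 1 pair. The change of EIF4EBP1 was not called without the THP-1 72 h pair (adjusted p = 0.129). The LSD1i gap of GABARAP was not called without the THP-1 72 h library (adjusted p = 0.0598). The LSD1i gap of CD53 was not called without the KASUMI-1 6 h, THP-1 24 h or the THP-1 72 h library (adjusted p = 0.0574 to 0.0973). The LSD1i gaps of EIF4EBP1 and PPP1R16B were not called without the KASUMI-1 72 h or the THP-1 72 h library (adjusted p = 0.0653 to 0.178). Of the 22 changes called without the pairing, 4 belonged to reversed genes (ANXA2, GABARAP, NLRC4 and NT5DC2), 5 to closed, 7 to narrowed and 6 to widened genes. MCUB, STX10, GCNT2, IGSF3, RGMB, CAMSAP2 and HERC5 were among them. STC2, SRD5A1, VEGFA, HK2, TLR1, SLC7A11, GNA15, CD53, EIF4EBP1, ZMAT1 and PPP1R16B were not. The vehicle gap of GNA15 was not called without the THP-1 24 h library (adjusted p = 0.157). The vehicle gap of EIF4EBP1 was not called without the KASUMI-1 72 h, THP-1 24 h or the THP-1 72 h library (adjusted p = 0.0873 to 0.177). The vehicle gap of ZMAT1 was not called without the KASUMI-1 6 h, THP-1 24 h or the THP-1 72 h library (adjusted p = 0.105 to 0.131).

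The promoters of MCUB, ANXA2 and NLRC4, whose gaps closed or reversed, are given in the same way as those of the calprotectin genes (RefSeq, GRCh38.p14), at chr4:109559996-109560295 (+), chr15:60397937-60398236 (-) and chr2:32265694-32265993 (-). MCUB held 1 PU.1 core and NLRC4 held 1 PU.1 core and 1 C/EBP core. No core was found in the 300 bases of ANXA2. For NLRC4, which has 3 listed starts, the one farthest upstream is shown and was searched.
MCUB: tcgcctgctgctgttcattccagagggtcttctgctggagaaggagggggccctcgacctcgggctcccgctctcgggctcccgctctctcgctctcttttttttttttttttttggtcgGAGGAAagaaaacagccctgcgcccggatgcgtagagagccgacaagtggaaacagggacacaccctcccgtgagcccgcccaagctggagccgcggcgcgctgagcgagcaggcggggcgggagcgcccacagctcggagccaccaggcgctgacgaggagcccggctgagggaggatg
ANXA2: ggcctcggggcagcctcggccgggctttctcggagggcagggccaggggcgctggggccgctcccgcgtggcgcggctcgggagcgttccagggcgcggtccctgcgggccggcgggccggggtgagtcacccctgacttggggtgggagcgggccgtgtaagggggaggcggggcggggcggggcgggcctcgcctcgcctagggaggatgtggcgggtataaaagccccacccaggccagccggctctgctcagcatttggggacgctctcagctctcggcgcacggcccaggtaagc
NLRC4: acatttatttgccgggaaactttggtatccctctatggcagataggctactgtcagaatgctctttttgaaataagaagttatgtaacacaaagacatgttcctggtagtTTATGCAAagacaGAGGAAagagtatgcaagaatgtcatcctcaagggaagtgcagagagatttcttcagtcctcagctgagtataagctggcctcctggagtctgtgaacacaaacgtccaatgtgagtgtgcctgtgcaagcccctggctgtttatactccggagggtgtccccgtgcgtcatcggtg

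**Figure D4:**
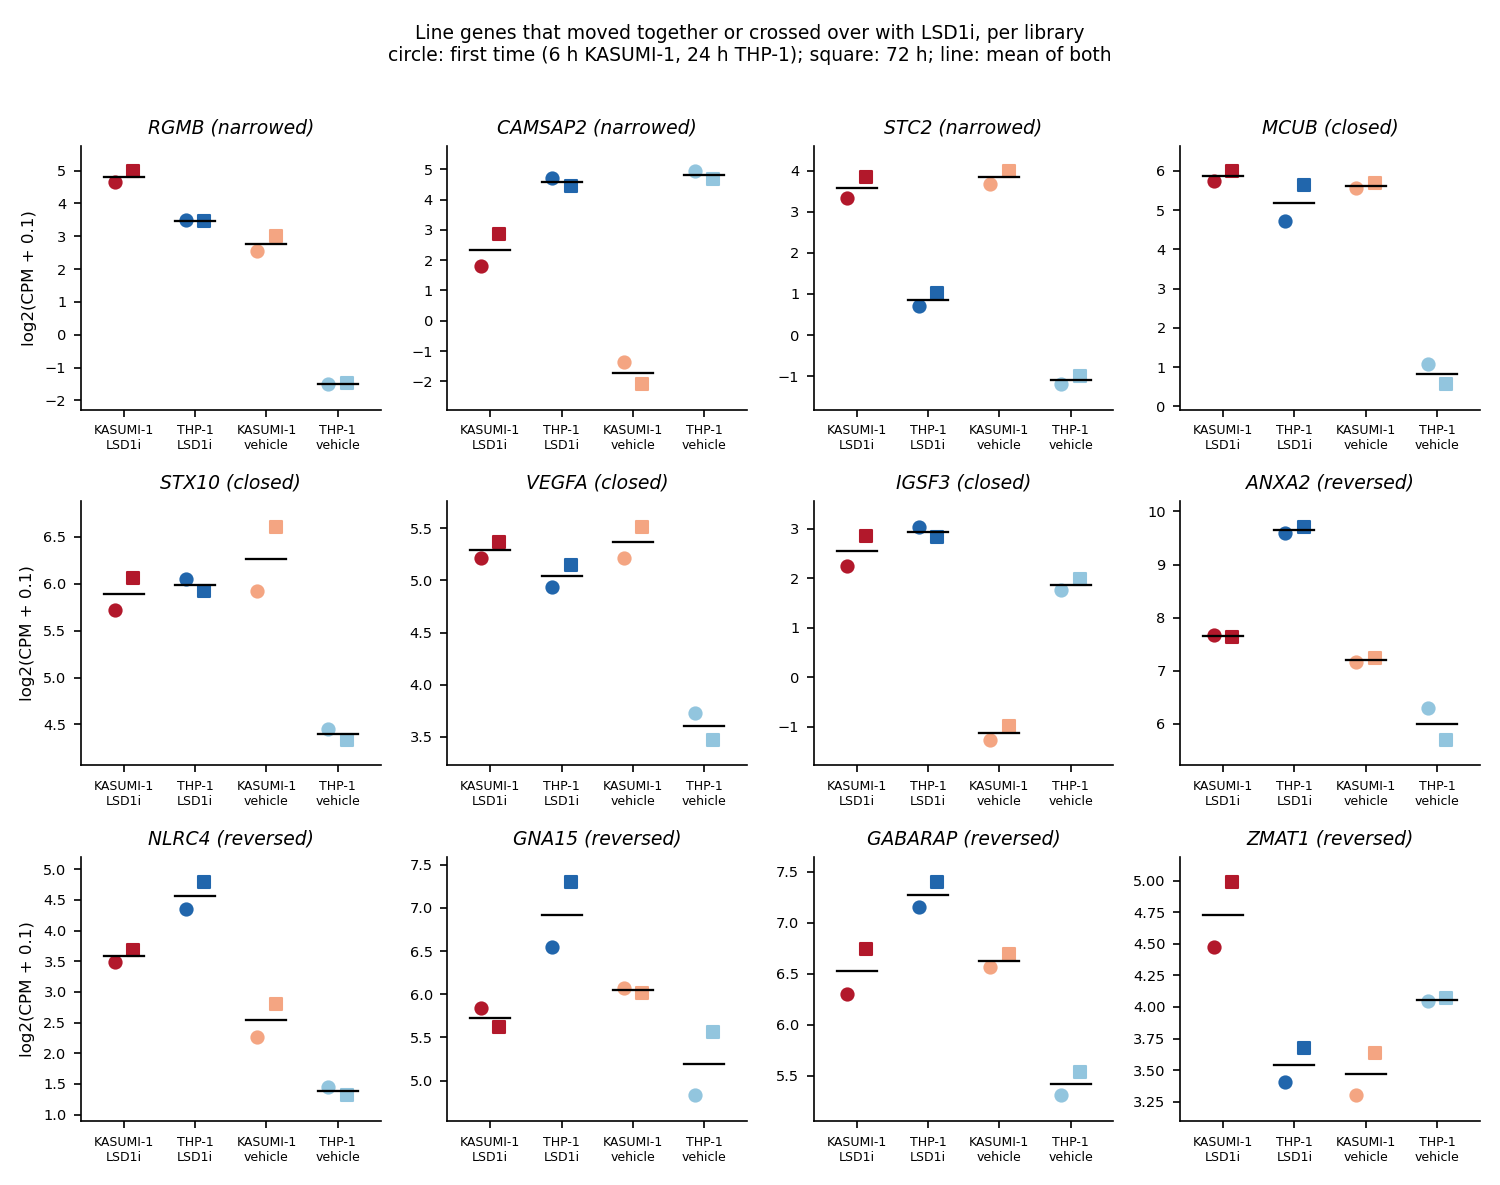
Values of 12 genes with a narrowed, closed or reversed gap in each library, as log2 of CPM plus 0.1 (vertical axis, own range per panel), for KASUMI-1 with LSD1i, THP-1 with LSD1i, KASUMI-1 with vehicle and THP-1 with vehicle, circles for the first time, squares for 72 h and lines for the mean of both. In MCUB, STX10 and VEGFA the THP-1 level is near that of KASUMI-1 with LSD1i and below it with vehicle, and in ANXA2, NLRC4, GNA15 and GABARAP it is above it with LSD1i.

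Genes of antigen presentation and innate sensing leaned to THP-1, while the class II chains described here were split between the lines. The lean is set against 27.0% of all genes higher in KASUMI-1 and 30.8% higher in THP-1 with LSD1i. The gap of 2.62% of all genes changed toward KASUMI-1 and that of 3.07% toward THP-1. Of the 32 antigen presentation genes tested, 7 were higher in KASUMI-1 and 20 higher in THP-1 with LSD1i, and 5 were not called. The vehicle libraries gave 7, 17 and 8. Median gaps were -0.99 with LSD1i and -0.59 with vehicle (log2), and the gap changed toward KASUMI-1 in 0 members and toward THP-1 in 5 members. HLA-DRA, the alpha chain of HLA-DR, was higher in KASUMI-1, with 148 and 242 CPM in KASUMI-1 with LSD1i, against 8.58 and 14.7 CPM in THP-1 with LSD1i and a gap of 4.05 ± 0.33 (adjusted p = 3.32e-05). Its vehicle gap was 5.19 ± 0.25 (adjusted p = 4.38e-08), and the change was -1.14 ± 0.34 (adjusted p = 0.0547). HLA-DPB1 and HLA-DPA1, the chains of HLA-DP, were also higher in KASUMI-1, with gaps of 5.28 (adjusted p = 8.96e-06) and 3.81 (adjusted p = 1.97e-05). HLA-DRB1, a partner chain of HLA-DRA, was higher in THP-1, and its gap widened to -2.18 (adjusted p = 9.36e-05), against -1.25 (adjusted p = 0.000313) with vehicle. Also higher in THP-1 with LSD1i were HLA-DQB1 (-1.608, adjusted p = 0.00154), HLA-DOB (-1.748, adjusted p = 0.0102) and HLA-DMB (-1.445, adjusted p = 0.0204). Apart from HLA-DRA, these class II chains were chosen after their values were seen, and not every chain is given. The HLA-DRB1 change of -0.95 ± 0.18 (adjusted p = 0.0048) was not called without the THP-1 24 h pair (adjusted p = 0.0621) or the THP-1 72 h pair (adjusted p = 0.0975). CD74, which guides class II molecules to endosomes, had 262 and 359 CPM in KASUMI-1 with LSD1i, against 82.7 and 137 CPM in THP-1 with LSD1i and a gap of 1.48 ± 0.26 (adjusted p = 0.0018). The lipid-presenting genes CD1D and CD1A were on the THP-1 side. CD1D had 0.153 and 0.0974 CPM in KASUMI-1 with LSD1i, against 109 and 55.1 CPM in THP-1 with LSD1i, and CD1A had 2 reads over both KASUMI-1 LSD1i libraries and 711 over both THP-1 LSD1i libraries. IFI30, a reductase of antigen processing, had 3.61 and 4.38 CPM in KASUMI-1 with LSD1i, against 99.2 and 63.8 CPM in THP-1 with LSD1i, and 3.81 and 3.52 CPM in KASUMI-1 with vehicle, against 26.1 and 4.92 CPM in THP-1 with vehicle. Its gap widened to -4.36 ± 0.26 (adjusted p = 7.32e-06), against -2.1 ± 0.58 (adjusted p = 0.0103) with vehicle. HLA genes lie on alternative haplotypes of the genome, and reads that match several places were not counted, so they may be undercounted. The change of IFI30 was called in all 4 fits that left out 1 pair. The vehicle gap of IFI30 was not called without the THP-1 24 h library (adjusted p = 0.382).

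Of the 23 innate sensors tested, 2 were higher in KASUMI-1 and 16 higher in THP-1 with LSD1i, and 5 were not called. In vehicle these numbers were 3, 15 and 5. Over the list the gap had a median of -1.43 with LSD1i and -1.11 with vehicle (log2), and it changed toward KASUMI-1 in 1 member and toward THP-1 in 1 member. Both change counts lie near the 2.62% and 3.07% of all genes. With LSD1i 27.0% of all genes were higher in KASUMI-1 and 30.8% higher in THP-1. CD14, the coreceptor of lipopolysaccharide, had 1 read over both KASUMI-1 LSD1i libraries and 285 reads over both THP-1 LSD1i libraries, a THP-1 excess of 286-fold (95% counting interval 50.9 to 11328). With 1 read it could not pass the filter through treated KASUMI-1, so its fold is not read as support for the lean. LY96, which completes the lipopolysaccharide receptor, had 3.03 and 6.53 CPM in KASUMI-1 with LSD1i, against 17.5 and 16.2 CPM in THP-1 with LSD1i, and 0.184 and 0.134 CPM in KASUMI-1 with vehicle, against 0.42 and 0.0713 CPM in THP-1 with vehicle. Its gap was -1.83 ± 0.34 (adjusted p = 0.0023) with LSD1i and -0.63 ± 0.80 (adjusted p = 0.534) with vehicle, and the change was -1.39 ± 0.76 (adjusted p = 0.31). CD86, a costimulatory ligand raised by LSD1 inhibition in myeloid leukaemia cells, had 11.1 and 14.5 CPM in KASUMI-1 with LSD1i, against 22.4 and 41.3 CPM in THP-1 with LSD1i, and 0.682 and 0.712 CPM in KASUMI-1 with vehicle, against 0.715 and 0.57 CPM in THP-1 with vehicle. The lines overlapped with vehicle and not with LSD1i. Its gap was -1.32 ± 0.29 (adjusted p = 0.00568) with LSD1i and 0.10 ± 0.38 (adjusted p = 0.847) with vehicle, and the change of -1.39 ± 0.40 (adjusted p = 0.0501) missed the threshold of 0.05. LYZ, lysozyme, had 136 and 415 CPM in KASUMI-1 with LSD1i, against 4843 and 11086 CPM in THP-1 with LSD1i, and 29.6 and 38.1 CPM in KASUMI-1 with vehicle, against 886 and 527 CPM in THP-1 with vehicle. The LYZ gap was -4.87 ± 0.62 (adjusted p = 0.000344) with LSD1i and -4.4 ± 0.27 (adjusted p = 2.51e-07) with vehicle, with a change of -0.60 ± 0.47 (adjusted p = 0.499), and both lines rose, KASUMI-1 by 2.82 ± 0.35 (adjusted p = 8e-05) and THP-1 by 3.42 ± 0.36 (adjusted p = 3.04e-06).

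Lysosomal genes leaned to THP-1, and the gaps of some cathepsins widened. For comparison, 27.0% of all genes were higher in KASUMI-1 and 30.8% higher in THP-1 with LSD1i. Toward KASUMI-1 2.62% of all genes changed and toward THP-1 3.07%. Of the 41 lysosome and cathepsin genes tested, 4 were higher in KASUMI-1 and 21 higher in THP-1 with LSD1i, and 16 were not called. Vehicle counts, in the same order, were 5, 20 and 16. At the median the gap stood at -0.54 with LSD1i and -0.43 with vehicle (log2), and it changed toward KASUMI-1 in 0 members and toward THP-1 in 8 members. CTSZ, a cathepsin with carboxypeptidase activity, had 94.7 and 97.6 CPM in KASUMI-1 with LSD1i, against 381 and 391 CPM in THP-1 with LSD1i, and 99.4 and 125 CPM in KASUMI-1 with vehicle, against 158 and 152 CPM in THP-1 with vehicle. Its gap widened to -2.02 ± 0.15 (adjusted p = 2.15e-05), against -0.48 ± 0.17 (adjusted p = 0.0358) with vehicle, and the change was also called without the pairing (adjusted p = 0.0212). CTSH, an aminopeptidase cathepsin, had 6.16 and 7.28 CPM in KASUMI-1 with LSD1i, against 102 and 121 CPM in THP-1 with LSD1i, and its gap widened to -4.06 ± 0.18 (adjusted p = 1.71e-06), against -2.59 ± 0.21 (adjusted p = 2.07e-06) with vehicle. CTSL kept its gap, with 0.331 and 0.0731 CPM in KASUMI-1 with LSD1i, against 70.6 and 55.2 CPM in THP-1 with LSD1i. The changes of CTSZ and CTSH were called in all 4 fits that left out 1 pair. Of the 29 cytokines and NF-kB targets tested, 2 were higher in KASUMI-1 and 10 higher in THP-1 with LSD1i, and 17 were not called. Their counts with vehicle came to 7, 11 and 11. This list had a median gap of -0.02 with LSD1i and 0.002 with vehicle (log2), and the gap changed toward KASUMI-1 in 0 members and toward THP-1 in 6 members. Its 10 members higher in THP-1 with LSD1i lie near the share of all genes. TNF had 0.967 and 0.609 CPM in KASUMI-1 with LSD1i, against 11.3 and 5.31 CPM in THP-1 with LSD1i, and its gap widened to -3.41 ± 0.45 (adjusted p = 0.000399), against -1.3 ± 0.35 (adjusted p = 0.00935) with vehicle. The change of TNF was not called without the THP-1 24 h or the THP-1 72 h pair (adjusted p = 0.0658 to 0.194). Of the 41 interferon response genes tested, 9 were higher in KASUMI-1 and 23 higher in THP-1 with LSD1i, and 9 were not called. With vehicle the counts were 10, 22 and 9. The median gap was -1.16 with LSD1i and -0.88 with vehicle (log2), and the gap changed toward KASUMI-1 in 1 member and toward THP-1 in 3 members. BST2, which tethers virus particles to the cell surface, had 5.72 and 7.84 CPM in KASUMI-1 with LSD1i, against 135 and 123 CPM in THP-1 with LSD1i and a kept gap of -4.26 ± 0.20 (adjusted p = 2.15e-06). The vehicle gap of CTSZ was not called without the KASUMI-1 6 h, THP-1 24 h or the THP-1 72 h library (adjusted p = 0.079 to 0.197).

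Genes of the mTOR complexes and their brakes were called about as often as any gene, and single members and inputs are described here. IRS1, an adaptor of the insulin receptor, had 0.0763 and 0.195 CPM in KASUMI-1 with LSD1i, against 2.91 and 4.77 CPM in THP-1 with LSD1i, a gap of -4.79 ± 0.50 (adjusted p = 0.000125), against -2.97 ± 0.53 (adjusted p = 0.000665) with vehicle, and the change of -1.89 ± 0.88 (adjusted p = 0.224) was not called. IRS2 had 2.87 and 3.77 CPM in KASUMI-1 with LSD1i, against 15.2 and 11.8 CPM in THP-1 with LSD1i, a gap of -2.04 ± 0.26 (adjusted p = 0.000316). DEPTOR, an inhibitor within mTOR complexes, had 90.7 and 121 CPM in KASUMI-1 with LSD1i, against 7.02 and 14.8 CPM in THP-1 with LSD1i, a gap of 3.27 ± 0.34 (adjusted p = 0.000113). DDIT4, the REDD1 brake on mTORC1, had 41.1 and 58.9 CPM in KASUMI-1 with LSD1i, against 20.4 and 32.1 CPM in THP-1 with LSD1i, a gap of 0.92 ± 0.25 (adjusted p = 0.0155). Of the 38 mTOR complex and brake genes tested, 11 were higher in KASUMI-1 and 12 higher in THP-1 with LSD1i, and 15 were not called. The vehicle libraries gave 13, 10 and 15. Median gaps were -0.17 with LSD1i and -0.04 with vehicle (log2), and the gap changed toward KASUMI-1 in 2 members and toward THP-1 in 2 members. Over all genes 27.0% were higher in KASUMI-1 and 30.8% higher in THP-1 with LSD1i, so the mTOR counts lie near the share of any gene. Of the 32 insulin and PI3K inputs tested, 11 were higher in KASUMI-1 and 15 higher in THP-1 with LSD1i, and 6 were not called. In vehicle these numbers were 10, 16 and 6. Over the list the gap had a median of -0.39 with LSD1i and -0.69 with vehicle (log2), and it changed toward KASUMI-1 in 4 members and toward THP-1 in 1 member. IGF1R, the receptor of insulin-like growth factors, had 38.7 and 54.2 CPM in KASUMI-1 with LSD1i, against 1.3 and 1.1 CPM in THP-1 with LSD1i, and its gap widened to 5.25 ± 0.26 (adjusted p = 2.39e-06), against 3.94 ± 0.23 (adjusted p = 1.51e-07) with vehicle. FOXO3, a factor that AKT keeps out of the nucleus, had 51.8 and 70.4 CPM in KASUMI-1 with LSD1i, against 28.8 and 32 CPM in THP-1 with LSD1i, and its gap opened to 0.99 ± 0.18 (adjusted p = 0.00232), against 0.15 ± 0.20 (adjusted p = 0.564) with vehicle. The change of IGF1R was not called without the THP-1 72 h pair (adjusted p = 0.121). The change of FOXO3 was not called without the KASUMI-1 72 h, THP-1 24 h or the THP-1 72 h pair (adjusted p = 0.0856 to 0.295). The LSD1i gap of DDIT4 was not called without the KASUMI-1 72 h or the THP-1 24 h library (adjusted p = 0.0637 to 0.0807).

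The lists of amino acid stress, ribosome and metabolic genes are given by their calls in each state and by the test of the change, which over all genes was called in 2.62% toward KASUMI-1 and 3.07% toward THP-1. Of the 34 ATF4 targets tested, 7 were higher in KASUMI-1 and 10 higher in THP-1 with LSD1i, and 17 were not called. Vehicle counts, in the same order, were 16, 7 and 11. At the median the gap stood at -0.17 with LSD1i and 0.36 with vehicle (log2), and it changed toward KASUMI-1 in 2 members and toward THP-1 in 9 members. Of the 36 ribosome biogenesis genes and MYC targets tested, 12 were higher in KASUMI-1 and 3 higher in THP-1 with LSD1i, and 21 were not called. Their counts with vehicle came to 21, 2 and 13. This list had a median gap of 0.23 with LSD1i and 0.54 with vehicle (log2), and the gap changed toward KASUMI-1 in 1 member and toward THP-1 in 2 members. MYC itself kept its gap, with 263 and 387 CPM in KASUMI-1 with LSD1i, against 102 and 89.7 CPM in THP-1 with LSD1i and a gap of 1.75 ± 0.21 (adjusted p = 0.000233). MRTO4, a ribosome assembly factor, had 149 and 122 CPM in KASUMI-1 with LSD1i, against 174 and 143 CPM in THP-1 with LSD1i, and its gap closed to -0.24 ± 0.17 (adjusted p = 0.269), against 0.50 ± 0.17 (adjusted p = 0.03) with vehicle. Of the 31 cholesterol and fatty acid synthesis genes tested, 4 were higher in KASUMI-1 and 5 higher in THP-1 with LSD1i, and 22 were not called. With vehicle the counts were 8, 3 and 20. The median gap was 0.03 with LSD1i and 0.45 with vehicle (log2), and the gap changed toward KASUMI-1 in 0 members and toward THP-1 in 3 members. Of the 31 glycolysis and hypoxia-inducible genes tested, 7 were higher in KASUMI-1 and 11 higher in THP-1 with LSD1i, and 13 were not called. The vehicle libraries gave 9, 8 and 14. Median gaps were -0.36 with LSD1i and 0.15 with vehicle (log2), and the gap changed toward KASUMI-1 in 1 member and toward THP-1 in 6 members. With LSD1i the counts of ATF4 targets lie near the 27.0% and 30.8% of all genes, and the ribosome list changed about as often as any gene. The difference between the call counts of both states was not tested. The change of MRTO4 was not called without the KASUMI-1 72 h, THP-1 24 h or the THP-1 72 h pair (adjusted p = 0.0516 to 0.197). The vehicle gap of MRTO4 was not called without the KASUMI-1 6 h or the THP-1 72 h library (adjusted p = 0.0544 to 0.299).

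Most called S phase and mitosis genes were higher in treated THP-1, while the called G1 genes were evenly split. The shares of all genes with LSD1i were 27.0% higher in KASUMI-1 and 30.8% higher in THP-1. A change was called for 2.62% of all genes toward KASUMI-1 and 3.07% toward THP-1. Of the 37 S phase genes tested, 1 was higher in KASUMI-1 and 21 higher in THP-1 with LSD1i, and 15 were not called. In vehicle these numbers were 1, 13 and 23. Over the list the gap had a median of -0.68 with LSD1i and -0.34 with vehicle (log2), and it changed toward KASUMI-1 in 0 members and toward THP-1 in 1 member. Of the 34 mitosis genes tested, 2 were higher in KASUMI-1 and 14 higher in THP-1 with LSD1i, and 18 were not called. Vehicle counts, in the same order, were 3, 14 and 17. At the median the gap stood at -0.51 with LSD1i and -0.42 with vehicle (log2), and it changed toward KASUMI-1 in 0 members and toward THP-1 in 2 members. CDC20, an activator of the anaphase-promoting complex, had 101 and 67.8 CPM in KASUMI-1 with LSD1i, against 655 and 822 CPM in THP-1 with LSD1i, a gap of -3.14 ± 0.25 (adjusted p = 2.86e-05). GINS4, a subunit of the replicative helicase, had 21.3 and 16.6 CPM in KASUMI-1 with LSD1i, against 74.1 and 69.7 CPM in THP-1 with LSD1i, a gap of -1.94 ± 0.18 (adjusted p = 6.29e-05). MCM3, another helicase subunit, had 308 and 222 CPM in KASUMI-1 with LSD1i, against 873 and 542 CPM in THP-1 with LSD1i, a gap of -1.43 ± 0.27 (adjusted p = 0.00257). Of the 17 G1 cyclins and CDK inhibitors tested, 6 were higher in KASUMI-1 and 6 higher in THP-1 with LSD1i, and 5 were not called. Their counts with vehicle came to 8, 9 and 0. This list had a median gap of -0.13 with LSD1i and -0.49 with vehicle (log2), and the gap changed toward KASUMI-1 in 2 members and toward THP-1 in 0 members. The D cyclin CCND2 was higher in KASUMI-1, with 112 and 150.1 CPM in KASUMI-1 with LSD1i, against 0.402 and 0.48 CPM in THP-1 with LSD1i. The D cyclin CCND3 was higher in THP-1, with 10.1 and 17.5 CPM in KASUMI-1 with LSD1i, against 201 and 167 CPM in THP-1 with LSD1i. CDKN1B, the p27 inhibitor, had 95.1 and 125 CPM in KASUMI-1 with LSD1i, against 19.1 and 21.6 CPM in THP-1 with LSD1i, and its gap widened to 2.42 ± 0.18 (adjusted p = 2.3e-05), against 1.5 ± 0.19 (adjusted p = 5.62e-05) with vehicle. CDKN1A, the p21 inhibitor, had 5.39 and 2.0 CPM in KASUMI-1 with LSD1i, against 31.1 and 38.2 CPM in THP-1 with LSD1i, and a kept gap of -3.24 ± 0.41 (adjusted p = 0.000343). In RNA from whole cultures fewer cells of a kind and less RNA per cell cannot be told apart. The change of CDKN1B was not called without the THP-1 24 h or the THP-1 72 h pair (adjusted p = 0.0662 to 0.1).

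Some genes were read in 1 treated line only. Of the genes tested, 106 had no reads in either treated THP-1 library and 294 none in either treated KASUMI-1 library, and 57 and 190 of these had none in the vehicle libraries of that line either. CDKN2A, which encodes the p16 and ARF tumour suppressors, had 200 reads in treated KASUMI-1 and 0 in treated THP-1, at least 66.5-fold higher in KASUMI-1 (with the 0 of a group taken as 3 reads). Its neighbour MTAP, an enzyme of methionine salvage, had 28.7 and 25.1 CPM in KASUMI-1 with LSD1i, against 0.939 and 0.932 CPM in THP-1 with LSD1i, a gap of 4.83 ± 0.23 (adjusted p = 2.38e-06). KLHL9, further along the same arm, had 2824 reads in treated KASUMI-1 and 3 in treated THP-1. ELAVL2, beyond CDKN2A on the other side, had 0 reads in treated KASUMI-1 and 264 in treated THP-1, at least 88.3-fold lower in KASUMI-1. Of the 10 listed genes of this stretch of chromosome 9, 7 were tested, 3 of them higher in KASUMI-1 and 4 higher in THP-1 in both states, and no change was called. Genes such as CDKN2A, KLHL9 and ELAVL2 passed the filter only through the line that expressed them and so had to differ, and nothing is read from these counts beside the 57.9% of all genes. CD14, CD1A and S100A12, described above, likewise could not pass it through treated KASUMI-1. The list counts and the share of all genes both hold such genes. ZSCAN18, a zinc finger gene, led the genes without reads in treated THP-1, with 780 reads in treated KASUMI-1 and 0 in treated THP-1, at least 259-fold higher. RAB11FIP5, a Rab11 effector of recycling endosomes, led the other side, with 0 reads in treated KASUMI-1 and 1598 in treated THP-1, at least 534-fold lower. NCAM1, the CD56 antigen, had 0 reads in treated KASUMI-1 and 801 in treated THP-1, at least 268-fold lower.

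The remaining lists are given by their counts, beside 27.0% of all genes higher in KASUMI-1 and 30.8% higher in THP-1 with LSD1i. The gap changed toward KASUMI-1 in 2.62% of all genes and toward THP-1 in 3.07%. With LSD1i the gap counts of the integrin and ERK lists are not far from the shares of all genes. Of the 24 growth factor receptors tested, 7 were higher in KASUMI-1 and 12 higher in THP-1 with LSD1i, and 5 were not called. With vehicle the counts were 6, 11 and 7. The median gap was -0.44 with LSD1i and -0.31 with vehicle (log2), and the gap changed toward KASUMI-1 in 2 members and toward THP-1 in 1 member. Of the 26 integrins and adhesion molecules tested, 9 were higher in KASUMI-1 and 10 higher in THP-1 with LSD1i, and 7 were not called. The vehicle libraries gave 11, 9 and 6. Median gaps were 0.24 with LSD1i and 0.39 with vehicle (log2), and the gap changed toward KASUMI-1 in 0 members and toward THP-1 in 6 members. Of the 30 ERK pathway genes tested, 9 were higher in KASUMI-1 and 11 higher in THP-1 with LSD1i, and 10 were not called. In vehicle these numbers were 10, 8 and 12. Over the list the gap had a median of -0.06 with LSD1i and 0.09 with vehicle (log2), and it changed toward KASUMI-1 in 3 members and toward THP-1 in 5 members. Of the 27 cell death regulators tested, 3 were higher in KASUMI-1 and 14 higher in THP-1 with LSD1i, and 10 were not called. Vehicle counts, in the same order, were 6, 13 and 8. At the median the gap stood at -0.60 with LSD1i and -0.42 with vehicle (log2), and it changed toward KASUMI-1 in 1 member and toward THP-1 in 3 members. Of the 19 metallothionein and redox genes tested, 2 were higher in KASUMI-1 and 12 higher in THP-1 with LSD1i, and 5 were not called. Their counts with vehicle came to 5, 10 and 4. This list had a median gap of -0.76 with LSD1i and -0.65 with vehicle (log2), and the gap changed toward KASUMI-1 in 2 members and toward THP-1 in 3 members. Of the 16 granule genes tested, 6 were higher in KASUMI-1 and 8 higher in THP-1 with LSD1i, and 2 were not called. With vehicle the counts were 5, 9 and 2. The median gap was -1.64 with LSD1i and -2.18 with vehicle (log2), and the gap changed toward KASUMI-1 in 2 members and toward THP-1 in 0 members.

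**Figure D5:**
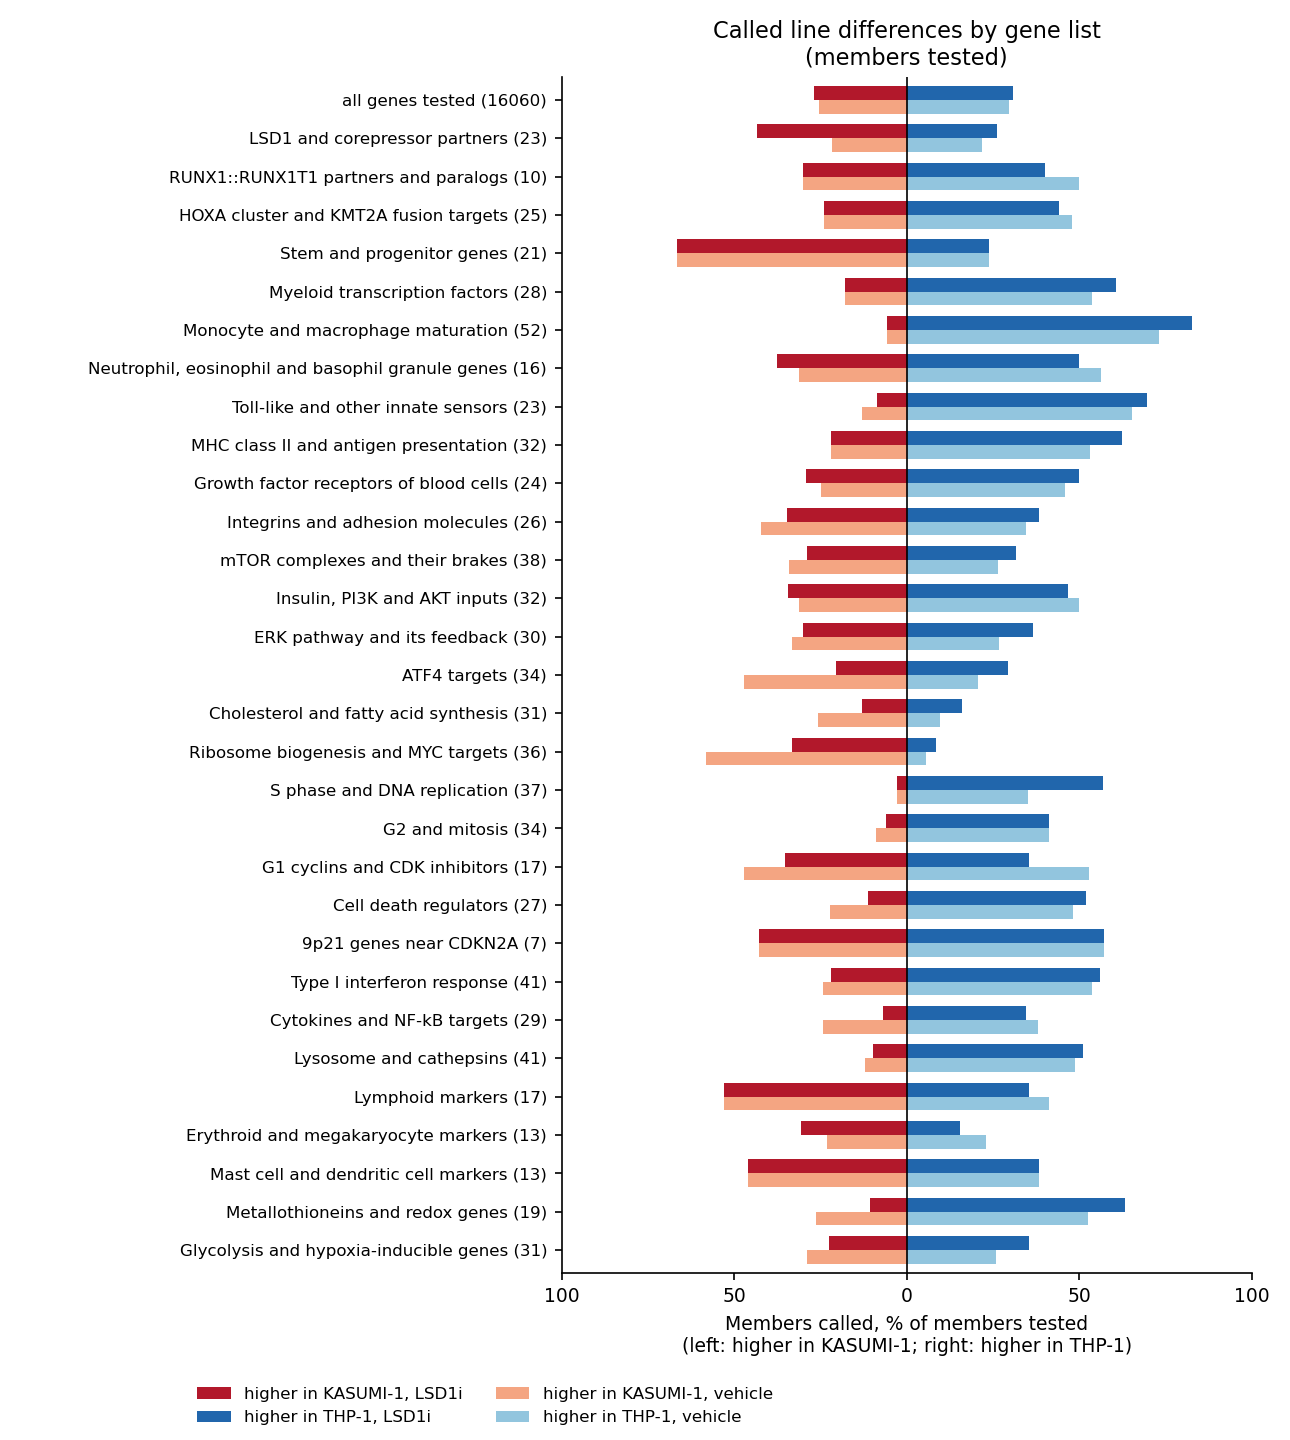
Share of the tested members of each gene list that were called higher in KASUMI-1 (bars to the left) and higher in THP-1 (bars to the right), in percent of the members tested, with LSD1i (dark, upper bar) and with vehicle (light, lower bar), and all 16060 genes on top. Stem and progenitor genes lean to KASUMI-1, monocyte, sensor and S phase genes lean to THP-1, and the ATF4 and ribosome lists have shorter KASUMI-1 bars with LSD1i than with vehicle, a difference that was not tested.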

How the data were processed

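Gene-level read counts of 8 RNA libraries were used. A single table of raw counts per gene name was deposited, which the authors made with featureCounts 1.5.2 on Ensembl release 54 models of NCBI build 36, per the file headers. Quality control with FastQC 0.10.0 and alignment with TopHat2 2.0.10 to hg18 are listed in the submitters' processing notes. The recorded command sets no strand option, so overlapping and antisense genes cannot be separated, and reads with several matches were not counted. Gene length was deposited by the authors in a column that was not used for tests.

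Of 33045 names, 18971 could be given a current symbol (16838 directly, 2262 through RefSeq synonyms on the same chromosome, and 129 left out because they lie on another one). Genes with enough reads were kept with edgeR's filterByExpr (minimum count 10), which left 16060, and CPM were scaled with TMM factors. The gap between the lines was tested within the 4 LSD1i libraries and within the 4 vehicle libraries, and the change of the gap over all 8 with line and time as pairs, by edgeR 4.0.16's quasi-likelihood test in R 4.3.3 with Benjamini-Hochberg adjustment at 0.05. The pairs come from the labels' line and time, and the 72 h minus first-time difference of LSD1i and vehicle libraries correlated across genes with r = 0.326 in KASUMI-1 and 0.343 in THP-1. DESeq2 1.42.0, RLE factors, no filter, no pairing and leaving out each library or pair were the alternatives. The scripts were tested on simulated counts.

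The lines compared, the 30 gene lists (850 genes, 840 matched and the others not analysed here) and the genes named were chosen with earlier results of these data known. Named were fixed genes, the 10 highest and 10 lowest called gaps with at least 4 reads in the lower line (average log2 CPM 1 or more), the 6 most abundant genes without reads in 1 line, the 6 largest changes per class and direction, and up to 5 gaps and 3 changes per list. Those described are a choice among them. Intervals and floors cover counting error only.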

Additional observations from a re-analysis of the deposited data

Results flagged for a closer look

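The LSD1i response differed between the lines in 421 genes toward KASUMI-1 and in 493 toward THP-1, by the test of the difference itself. The values below are the change of the gap on the log2 scale, positive where KASUMI-1 moved up relative to THP-1. Each passed an adjusted p under 0.05 in edgeR's quasi-likelihood test with the pairing, and no reason for any of them was tested. Widened gaps that moved toward KASUMI-1 did so by 1.91 in KIT, 2.53 in GFI1B, 0.81 in RUNX1, 2.79 in RASGRP3, 2.62 in SOCS2, 2.58 in SULT1C2, 2.09 in AFF2 and 1.16 in CDK6. Widened gaps that moved toward KASUMI-1 did so by 1.38 in ERG, 1.3 in IGF1R, 0.81 in FOXO3 and 0.91 in CDKN1B. Widened gaps that moved toward THP-1 did so by -1.38 in ITGAM, -4.34 in S100A8, -4.19 in S100A9, -4.04 in VCAN, -2.22 in MITF, -2.63 in IFI30, -2.04 in TNF and -1.49 in CTSH. Widened gaps that moved toward THP-1 did so by -1.53 in CTSZ. Narrowed gaps that moved toward KASUMI-1 did so by 4.6 in CAMSAP2 and 0.70 in BCL2. Narrowed gaps that moved toward THP-1 did so by -3.35 in RGMB, -2.46 in SRD5A1, -1.17 in CEBPE, -2.46 in STC2 and -1.82 in HERC5. Closed gaps that moved toward KASUMI-1 did so by 2.92 in IGSF3, 1.88 in SLC7A11, 1.69 in TLR1 and 0.80 in RUNX2. Closed gaps that moved toward THP-1 did so by -4.16 in MCUB, -2.93 in GCNT2, -1.97 in STX10, -1.52 in VEGFA, -0.75 in MRTO4 and -1.59 in HK2. Reversed gaps that moved toward KASUMI-1 did so by 3.12 in PPP1R16B and 1.79 in ZMAT1. Reversed gaps that moved toward THP-1 did so by -3.19 in ANXA2, -2.18 in NLRC4, -2.04 in GNA15, -1.95 in GABARAP, -1.72 in NT5DC2, -1.5 in CD53 and -1.02 in EIF4EBP1. Other gaps that moved toward KASUMI-1 did so by 0.73 in MEF2C. HLA-DRB1, also widened, moved toward THP-1 by -0.95.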

How the results depend on the processing

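The gaps between the lines depended little on the settings tried, and their changes depended on them much more. For the gap with LSD1i the fits that left out 1 library called 7139 to 8622 genes, and with vehicle 7270 to 8900. RLE factors, no filter, DESeq2 and a fit of all 8 libraries kept both counts within 1.5 times. For the change of the gap, the fit without the pairing called 22 genes, 4 toward KASUMI-1 and 18 toward THP-1, and put 6 genes in the widened, 7 in the narrowed, 5 in the closed and 4 in the reversed class. With no filter 653 genes changed toward KASUMI-1 and 590 toward THP-1 (52.5% toward KASUMI-1). Leaving out 1 pair gave 126 to 1713 changes, 44 to 866 toward KASUMI-1 and 82 to 847 toward THP-1. Leaving out both libraries of a line and time, an alternative chosen after seeing the data, gave 62 to 783 widened, 34 to 303 narrowed, 26 to 459 closed and 3 to 22 reversed genes. Of the 240 genes of the naming rule that were called with LSD1i, 220 were called in all 4 fits that left out 1 library, and of its 101 called changes 33 were called in all 4 fits that left out 1 pair. No called gap or change of a gene named in the text changed direction under the alternatives run, with HLA-DQB1, HLA-DOB and HLA-DMB left out of this check. The cause was not tested. With 2 libraries per line and state and 2 residual degrees of freedom, small changes could not be seen.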

Other observations

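Some genes listed as markers of other lineages were read in both lines. Among all genes 27.0% were higher in KASUMI-1 and 30.8% higher in THP-1 with LSD1i. Of the 17 lymphoid markers tested, 9 were higher in KASUMI-1 and 6 higher in THP-1 with LSD1i, and 2 were not called. The vehicle libraries gave 9, 7 and 1. Median gaps were 1.12 with LSD1i and 1.54 with vehicle (log2), and the gap changed toward KASUMI-1 in 0 members and toward THP-1 in 1 member. The lymphoid markers summed to 89.5 and 77.6 CPM in KASUMI-1 with LSD1i, against 24.0 and 26.4 CPM in THP-1 with LSD1i, and 3 of 29 (KLRD1, LCK and VPREB1) had no reads in any LSD1i library. Of the 13 erythroid and megakaryocyte markers tested, 4 were higher in KASUMI-1 and 2 higher in THP-1 with LSD1i, and 7 were not called. In vehicle these numbers were 3, 3 and 7. Over the list the gap had a median of 0.42 with LSD1i and 0.40 with vehicle (log2), and it changed toward KASUMI-1 in 0 members and toward THP-1 in 1 member. These summed to 888.0 and 957.0 CPM in KASUMI-1 with LSD1i, against 331.0 and 423.0 CPM in THP-1 with LSD1i, and 10 of 30, among them the globin genes HBA2 and HBB, had no reads in any LSD1i library. Single genes made up much of these sums. The highest were TFRC (458 CPM at 6 h) and GYPC (519 CPM at 72 h) in KASUMI-1 with LSD1i. In THP-1 with LSD1i it was TFRC, with 222 and 282 CPM. Of the 13 mast cell and dendritic cell markers tested, 6 were higher in KASUMI-1 and 5 higher in THP-1 with LSD1i, and 2 were not called. Vehicle counts, in the same order, were 6, 5 and 2. At the median the gap stood at -0.19 with LSD1i and -0.16 with vehicle (log2), and it changed toward KASUMI-1 in 0 members and toward THP-1 in 0 members. These summed to 48.0 and 72.9 CPM in KASUMI-1 with LSD1i, against 57.6 and 50.3 CPM in THP-1 with LSD1i. GATA2 was the highest of them in each LSD1i library, with 22.5 and 52.3 CPM in KASUMI-1 and 15.8 and 10.4 CPM in THP-1. The part of these marker lists in the gaps above was not tested.

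The gaps also differed by chromosome. The median gap of the 654 genes tested on chromosome 10 was 0.57 with LSD1i and 0.53 with vehicle, and that of the 806 genes on chromosome 12 was 0.42 with LSD1i and 0.40 with vehicle. On chromosome 16 it was -0.57 with LSD1i and -0.53 with vehicle over 698 genes, and on chromosome 8 it was -0.41 with LSD1i and -0.42 with vehicle over 523 genes. The median over all 16060 genes was 0.01 with LSD1i and 0.00 with vehicle. Copy number was not measured.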
